A study of Mus musculus with 4 samples.

Results

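A group of 97 mRNAs was scarce in 1 mRNA library of splenic CD4+ T cells from the B6 mouse strain and present in 1 from the MRL/lpr strain. They were chosen by their measured values from the 440 mRNAs that the study listed as higher in MRL/lpr and as predicted targets of lower miRNAs. Each had to be below 1 FPKM in B6 and at 1 FPKM or more in MRL/lpr. FPKM, fragments scaled to transcript length and to library size, is the unit that the column names imply, although the tables do not name it, and it allows levels of different genes to be compared. Of 24 genes of the table excluded by name, 10 lay within both limits, and their values are given separately. Since the values themselves chose the mRNAs, the folds given here are a description and carry no test.

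The study compared C57BL/6J (B6) with MRL/lpr-Tnfrsf6lpr (MRL/lpr) mice, both female and 16 weeks old and without a stated treatment. CD4+ T cells were enriched from the spleen by removing the other cells with magnetic beads, and 1 small RNA library and 1 mRNA library were made per strain. MRL/lpr mice carry the lpr mutation of Fas, the death receptor that removes activated lymphocytes, in all their cells and on a genetic background other than that of B6. Strain, mutation, disease and the single library therefore cannot be told apart. The labels name 1 B6 library per assay, whereas the series description speaks of 2 B6 mice, so the number of mice behind each library is uncertain. Trimmed small RNA reads numbered 33634335 (B6) and 29971024 (MRL/lpr). The depth of the mRNA libraries is not given in the sources used here. In RNA of a bulk preparation, fewer cells that make an mRNA and less of it per cell cannot be told apart.

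MiRNAs are short RNAs that guide a silencing complex to mRNAs. Pairing rests mainly on the seed, bases 2 to 8 of the miRNA, and commonly shortens the life of the mRNA or reduces its translation. In mice with the lpr mutation, lymphocytes that would be removed through Fas persist, lymph nodes and spleen enlarge, and on the MRL background a lupus-like disease with autoantibodies and nephritis develops.

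The table paired the 97 mRNAs with 26 of the 45 miRNAs that were listed as lower in MRL/lpr, and these 26 carry 18 different seeds. The sequences of the miRNAs that the pairs below turn on are shown as deposited, with T for U and the seed in capitals. Of the first 6, all but miR-466b-3p were paired with at least 8 of the mRNAs. MiR-466b-3p, paired with 6, is shown beside miR-466d-3p for its similar sequence. The last pair shows 2 miRNAs with a shared seed that were paired with the same 5 mRNAs.
miR-125a-5p: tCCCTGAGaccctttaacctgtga
miR-466d-3p: tATACATAcacgcacacatag
miR-466b-3p: aTACATACacgcacacataaga
miR-200a-3p: tAACACTGtctggtaacgatgt
miR-150-5p: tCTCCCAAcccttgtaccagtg
miR-26b-5p: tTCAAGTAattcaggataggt
miR-101a-3p: tACAGTACtgtgataactgaa
miR-101b-3p: tACAGTACtgtgatagctgaa
From base 2 of miR-466d-3p and base 1 of miR-466b-3p the sequences share a run of 19 bases, so that their seeds differ only by a shift of 1 base. Reads of these repeat-rich miRNAs may be split between near-identical copies in a way that the sources used here do not state, and their levels are uncertain to that extent.

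The 97 mRNAs lay between 0.00913 and 0.982 FPKM in B6, with a median of 0.398 FPKM. In MRL/lpr they lay between 1.03 and 13.9 FPKM, with a median of 2.15 FPKM. Most were thus low in MRL/lpr as well: 43 were below 2 FPKM there and only 5 reached 5 FPKM. In B6, 11 were below 0.1 FPKM, 48 lay between 0.1 and 0.5 FPKM and 38 were at 0.5 FPKM or more. Their values added up to 43.0 FPKM in B6 against 256 FPKM in MRL/lpr, which is 2.32% and 4.52% of the sum over all 440 higher mRNAs. The genes lie on 18 chromosomes, with 4 on X.

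The fold of MRL/lpr over B6 ran from 2.06 for *Mpp2*, a membrane-associated scaffold protein, to 281 for *Rhou*, a small GTPase. The median was 5.54, a log2 fold of 2.47. Over all 440 higher mRNAs the median fold was 3.98 and over the 343 others it was 3.51, but the limits of the choice favour large folds. Of the 97, 21 were at least 10-fold higher, 69 were at least 4-fold higher and 19 were less than 3-fold higher. Among all higher mRNAs, 12.5% were at least 10-fold and 49.8% at least 4-fold higher, and 24.3% lay within both limits of the choice. Because the choice used the same values, nothing is read from these shares. In the opposite direction, 31 of the 212 listed lower mRNAs reached 1 FPKM in B6 but not in MRL/lpr, with medians of 2.11 and 0.485 FPKM.

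**Figure D1:**
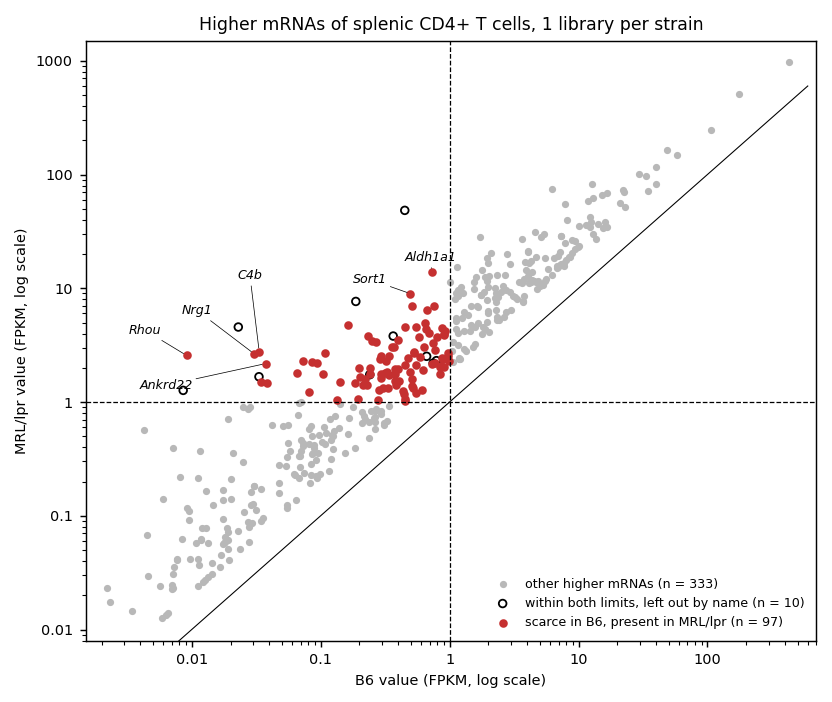
MRL/lpr value against B6 value of the 440 higher mRNAs, both in FPKM on log axes, with the limits of the choice dashed and equal values as a solid line. The 97 mRNAs (red) fill the upper left field from 0.00913 to 0.982 FPKM in B6, and all but 5 of them stay below 5 FPKM in MRL/lpr.

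The limits cut through a continuous range of levels. Just inside the B6 limit stood *Dusp16* at 0.982, *Jazf1* at 0.977 and *Itsn1* at 0.972 FPKM in B6. Just outside it stood *Niacr1* at 1.01, *Fhl2* at 1.05 and *Efcab7* at 1.06 FPKM. *Niacr1*, a receptor for nicotinic acid, reached 11.4 FPKM in MRL/lpr, above all but *Aldh1a1* of the 97. At the MRL/lpr limit, *Rapgef5* and *Car13* at 1.03 FPKM and *Dpf3* at 1.05 FPKM were inside, and *Scnn1a* at 0.993, *Acsl6* at 0.988 and *Lipt2* at 0.969 FPKM were outside. Another 164 higher mRNAs were below 1 FPKM in both libraries and 169 were at 1 FPKM or more in both.

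The largest folds belonged to the lowest B6 values. Fragment numbers were not used here, but many low values stand in ratios of small whole numbers once a relative worth of 1.07 for a fragment is allowed for, which holds for 135 of the 205 listed mRNAs, higher or lower, that were below 0.1 FPKM in at least 1 library. For those 135 the 2 numbers add up to 40 or less. Of the 97, 26 gave a ratio under a looser rule, with a smaller number of at most 10 and no limit on the sum. In 12 of the 26 the B6 number, in lowest terms, was 3 or less. The B6 values of these 12 ran from 0.00913 FPKM for *Rhou* to 0.801 FPKM for *Fads2*. At the higher B6 values the true number may be a multiple, so not all 12 are read as resting on 3 fragments or fewer. The ratios of the 4 genes that follow exceed a sum of 40, and so do those of *Tmem56*, *Met*, *Cdkn2b*, *Lpl* and *Dram1* below. The count of 135 therefore does not cover ratios of their kind. For *Rhou*, which shapes the actin skeleton and has little need of exchange factors, the values of 0.00913 and 2.57 FPKM stand as 1 to 263. *C4b*, a form of complement component C4, had 0.0334 and 2.78 FPKM, or 1 to 78. *Nrg1*, the neuregulin ligand of ErbB receptors, had 0.0305 and 2.65 FPKM, or 2 to 163. *Ankrd22*, an ankyrin repeat protein, had 0.0374 and 2.18 FPKM, or 2 to 109. Taken as fragments, these numbers leave wide 95% Clopper-Pearson intervals of the fold, 50.0 to 11139 for *Rhou*, 14.5 to 3333 for *C4b*, 23.7 to 725 for *Nrg1* and 15.7 to 487 for *Ankrd22*. The intervals cover counting error only. The true fragment numbers may be a multiple of those given, which would make the intervals narrower, and a ratio of large numbers can also be met by chance. The intervals of these 4 genes overlap.

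*Tmem56*, a membrane protein, had 0.0863 FPKM in B6 against 2.23 FPKM in MRL/lpr, a fold of 25.9 from 9 to 218 (95% interval 13.4 to 57.4). As for the folds, the intervals describe the values that chose the genes and carry no test. Of the 11 genes below 0.1 FPKM in B6, 7 gave a whole-number ratio. For *Arhgef10l*, *Tex15*, *Sox6* and *Col5a1* none was found, so their folds are given below without an interval and are uncertain to an unknown extent.

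For the most abundant of the 97 in MRL/lpr, the B6 values were among the higher ones. *Aldh1a1*, which oxidises retinal to retinoic acid, had 0.728 FPKM in B6 against 13.9 FPKM in MRL/lpr, a fold of 19.1. *Sort1*, the gene of sortilin, a receptor that carries proteins from the Golgi to endosomes, had 0.497 and 8.96 FPKM, a fold of 18.02. *Perp*, a membrane protein that the tumour suppressor p53 induces, had 0.512 and 6.97 FPKM. *Anln*, the gene of anillin, a scaffold of the ring that divides cells, had 0.752 and 6.94 FPKM. *Sec14l2*, a lipid-binding protein, had 0.672 and 6.49 FPKM. These 5 genes held 16.9% of the summed MRL/lpr level of the 97. Between the 15 highest levels in MRL/lpr and the 15 largest folds, 3 genes were shared, *Aldh1a1* and *Sort1* among them.

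By known role the 97 were spread over many processes. The roles were assigned from general knowledge after the values had been seen, so their medians describe these genes and set no role apart from another. The group of cell death, stress and growth arrest had a median fold of 10.6 over 8 genes, and those of immune mediators and plasma proteins 8.24 over 5 and of small GTPases and their regulators 7.98 over 12. At the other end stood phosphatases and kinase scaffolds, with a median fold of 3.67 over 3 genes, and transporters and carbonic anhydrases, with 4.43 over 4.

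**Figure D2:**
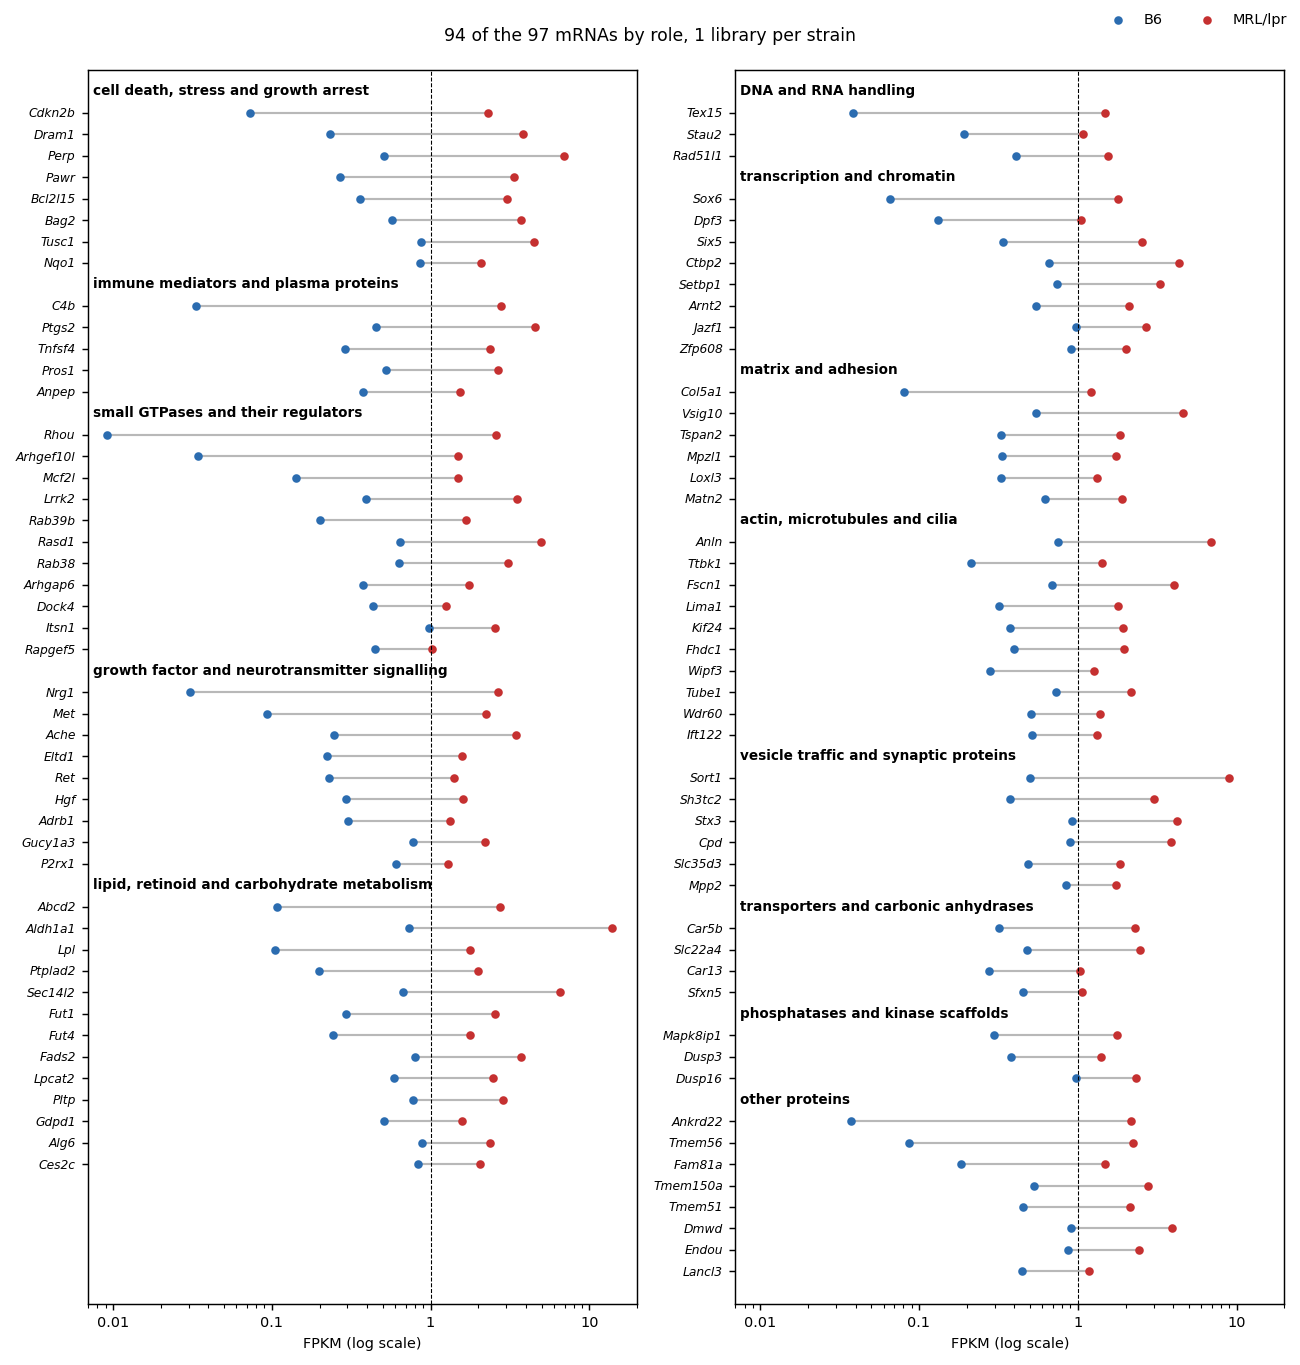
FPKM on a log axis of 94 of the 97 mRNAs in the B6 library (blue) and the MRL/lpr library (red), grouped by role, with the limit of 1 FPKM dashed. The span from blue to red is the fold, longest for *Rhou* at 281 and shortest for *Mpp2* at 2.06.

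Among signalling molecules, ligands and receptors stood side by side. *Hgf*, hepatocyte growth factor, had 0.295 FPKM in B6 against 1.61 FPKM in MRL/lpr, and *Met*, the receptor tyrosine kinase that binds it, had 0.0939 and 2.22 FPKM. The fold was 5.46 for the ligand and 23.7 for the receptor (95% interval 11.2 to 59.8, from a ratio of 7 to 155). *Ret*, the signalling receptor of the GDNF family of neurotrophic factors, had 0.230 and 1.40 FPKM. Proteins that receive or end transmitter signals were also present. *Ache*, the acetylcholinesterase that breaks down acetylcholine, had 0.249 FPKM in B6 against 3.45 FPKM in MRL/lpr, a fold of 13.9. In lowest terms its ratio is 1 to 13, which taken as fragments gives a 95% interval from 2.09 to 590. The B6 value that stands as 1 here is far above the 0.00913 FPKM that stands as 1 for *Rhou*. The true numbers for *Ache* may thus be a multiple of these, and the interval too wide. *Adrb1*, the beta-1 adrenergic receptor, had 0.303 and 1.32 FPKM, and *P2rx1*, an ATP-gated ion channel, had 0.608 and 1.28 FPKM. *Gucy1a3*, a subunit of the nitric oxide-sensing guanylate cyclase, was 2.84-fold higher and *Eltd1*, an adhesion G protein-coupled receptor of endothelium, was 7.12-fold higher. Of the 13 EGF family ligands and receptors listed for this purpose, only *Nrg1* stood in the tables.

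Of the immune mediators, *Ptgs2*, the inducible cyclooxygenase that starts prostaglandin synthesis, had 0.454 FPKM in B6 against 4.52 FPKM in MRL/lpr, a fold of 9.96. *Tnfsf4*, the ligand of the T cell costimulatory receptor OX40, had 0.289 and 2.38 FPKM, a fold of 8.24. *Pros1*, the anticoagulant protein S, which also bridges dying cells to phagocyte receptors, had 0.528 and 2.68 FPKM. *Anpep*, the surface peptidase CD13, was 4.07-fold higher. Of 17 complement genes, *C4b* and its near-identical neighbour *C4a* were in the table of higher mRNAs and *Cd55*, an inhibitor of complement, was in the table of lower ones. *C4a* had 0.263 FPKM in B6 against 0.580 FPKM in MRL/lpr, which put it outside the limits. How reads were divided between the 2 C4 genes is not given in the sources used here, so the value of each is uncertain. None of 17 listed interferon-stimulated genes was in either table, but that list did not hold *Cxcl10*, an interferon-induced chemokine, which had 12.3 FPKM in B6 against 41.9 FPKM in MRL/lpr and is 1 of the genes excluded by name.

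The 12 small GTPases and regulators included GTPases, their activators and their inhibitors. Of the exchange factors, which load GTPases with GTP, *Arhgef10l* had 0.0345 FPKM in B6 against 1.50 FPKM in MRL/lpr, a fold of 43.3, and *Mcf2l* had 0.142 and 1.50 FPKM. *Dock4*, another exchange factor, was 2.85-fold higher, the endocytic scaffold *Itsn1* 2.61-fold and *Rapgef5*, which acts on Rap GTPases, 2.28-fold. *Arhgap6*, which switches such GTPases off, had 0.377 and 1.75 FPKM. *Rasd1*, a Ras-like protein induced by glucocorticoids, had 0.641 FPKM in B6 against 4.92 FPKM in MRL/lpr, the highest MRL/lpr level of the 12. *Lrrk2*, a kinase with a GTPase domain that phosphorylates Rab proteins, had 0.395 and 3.52 FPKM, and 2 Rab proteins, *Rab38* and *Rab39b*, were 4.84-fold and 8.30-fold higher. Of 18 listed GTPases and regulators of the family of *Rhou*, 3 were in the table of higher mRNAs. *Rhou* and *Arhgap6* were scarce in B6, whereas *Rhob* had 57.6 FPKM there and 149 FPKM in MRL/lpr.

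Genes of cell death and growth arrest followed. *Cdkn2b*, an inhibitor of cyclin-dependent kinases, had 0.0732 FPKM in B6 against 2.29 FPKM in MRL/lpr, a fold of 31.3 from a ratio of 3 to 88 (95% interval 10.4 to 155). *Dram1*, a lysosomal protein that p53 induces and that promotes autophagy, had 0.233 and 3.82 FPKM, a fold of 16.4. Its 95% interval of 5.27 to 82.3 comes from a ratio of 3 to 46 in lowest terms, and may be too wide. *Perp* was 13.6-fold and *Pawr*, a protein that promotes apoptosis, 12.6-fold higher. The other 4 were *Bcl2l15*, a relative of BCL2, at 8.50-fold, *Bag2*, a partner of the chaperone HSP70, at 6.44-fold, the tumour suppressor candidate *Tusc1* at 5.13-fold, and the quinone reductase *Nqo1* at 2.40-fold.

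The metabolic genes, 14 in all, had a median fold of 5.96 and reached 25.2-fold for *Abcd2*. *Abcd2*, a carrier of very long-chain fatty acids into peroxisomes, had 0.108 FPKM in B6 against 2.72 FPKM in MRL/lpr. *Lpl*, lipoprotein lipase, had 0.105 and 1.78 FPKM, a fold of 16.9 (95% interval 7.95 to 43.1, from a ratio of 7 to 111). Other genes of lipid handling had smaller folds, such as the fatty acid desaturase *Fads2* (4.63), the phospholipid transfer protein *Pltp* (3.70) and the acyltransferase *Lpcat2* (4.21). *Fut1* and *Fut4*, fucosyltransferases that finish surface sugar chains, were 8.72-fold and 7.29-fold higher.

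Of the transcription and chromatin genes, *Ctbp2*, a corepressor and the subject of the series title together with miR-200a-3p, had 0.661 FPKM in B6 against 4.36 FPKM in MRL/lpr, a fold of 6.61. *Sox6*, a DNA-binding factor of the SOX family, had 0.0659 and 1.80 FPKM, a fold of 27.3. The others ran from 2.23-fold for *Zfp608* to 7.91-fold for *Dpf3*. By the annotation in the deposited table, 5 of the 97 (5.16%) and 40 of the 343 other higher mRNAs (11.7%) carried the term DNA binding, and 2 (2.06%) and 16 (4.66%) carried a term of the cell cycle, cell division or mitosis. For the extracellular region the shares were 13.4% and 12.2%, for the plasma membrane 22.7% and 27.1%, and for the nucleus 28.9% and 32.4%. No test was made of these shares.

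Structural proteins and smaller groups made up the rest. Besides *Anln*, *Fscn1*, which bundles actin filaments, had 0.692 FPKM in B6 against 4.01 FPKM in MRL/lpr. The remaining 8 genes of actin, microtubules and cilia stayed between 1.28 FPKM (*Wipf3*) and 2.15 FPKM (*Tube1*) in MRL/lpr. *Col5a1*, a chain of fibrillar collagen V, had 0.0809 and 1.22 FPKM, a fold of 15.1, and was the only 1 of 21 listed matrix and protease genes among the 97. *Adam8*, *Adam9* and *Adamts1* of that list were higher but outside the limits, and *Adam12* was lower. *Vsig10*, a membrane protein of the immunoglobulin superfamily, had 0.547 and 4.57 FPKM, and *Loxl3*, an enzyme that cross-links collagen, was 3.99-fold higher. *Stx3*, a syntaxin of vesicle fusion, had 0.915 and 4.23 FPKM, and *Cpd*, a carboxypeptidase of the Golgi, had 0.899 and 3.86 FPKM. *Dmwd*, a protein with WD repeats, had 0.911 and 3.93 FPKM. *Tex15*, known from meiosis of male germ cells, had 0.0387 and 1.48 FPKM, a fold of 38.4. The phosphatases *Dusp3* and *Dusp16*, which act on MAP kinases among others, were 3.67-fold and 2.36-fold higher, and the carbonic anhydrases *Car5b* and *Car13* 7.12-fold and 3.74-fold.

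Most of the 97 had 1 predicted partner among the lower miRNAs. Of them, 81 (83.5%) were paired with 1 miRNA, 12 with 2, 3 with 3 and 1, *Stx3*, with 6, all of the let-7 family. Among the 343 other higher mRNAs 243 (70.8%) were paired with 1 miRNA. Counted by seed, 91 of the 97 (93.8%) and 303 of the others (88.3%) had a single one, and no gene of the 97 had more than 2. The choice by level did not use the pairs. The table gives neither a score nor the position of a site, and none of the pairs was tested in cells here. For *Ctbp2*, the paper states that its authors earlier reported miR-200a-3p to target the CtBP2 complex in T cells of MRL/lpr mice.

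The partners of miR-125a-5p and miR-466d-3p were the most numerous, 13 each. For miR-125a-5p this was 13.4% of the 97 and 8.75% of the others, and for miR-466d-3p 13.4% and 9.62%. MiR-125a-5p went from 58.5 RPM (reads scaled to the library size) in B6 to 10.01 RPM in MRL/lpr, 5.84 times lower (95% interval 5.17 to 6.62). Its partners with the highest MRL/lpr levels were *Sec14l2*, *Ache* and *Rab38*, and both fucosyltransferases and *Tnfsf4* were among them. MiR-466d-3p was scarce in both libraries, with 90 reads (2.68 RPM) for B6 against 17 reads (0.567 RPM) for MRL/lpr. Its partners included *Anln*, *Arhgef10l*, *Arhgap6* and *Col5a1*. MiRNAs with names of the miR-466, miR-467 and miR-669 groups were paired with 25 of the 97 (25.8%) and 79 of the others (23.0%).

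MiR-200a-3p had the most uneven levels, with 179 reads (5.32 RPM) for B6 against 3 reads (0.1001 RPM) for MRL/lpr, 53.2 times lower (95% interval 17.9 to 260). It was paired with 10 of the 97 (10.3%) and 30 of the others (8.75%). Among the 10 were *Aldh1a1* and *Perp*, of the highest MRL/lpr levels, as well as *Ctbp2*, *Bcl2l15* and *Tmem56*. The median MRL/lpr level of its partners was 2.96 FPKM and their median fold 5.46, against 5.54 over the 97.

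MiR-26b-5p was paired with 8 genes, among them the ligand *Hgf*, its receptor *Met*, the receptor *Ret*, and *Ptgs2*, *Pawr* and *Rhou*. Its own level was 524 RPM in B6 against 255 RPM in MRL/lpr, 2.05 times lower, and its partners had a median fold of 8.54. MiR-150-5p, which mature lymphocytes make in quantity, was also paired with 8 genes, *Ankrd22* and *Vsig10* among them. It was the more abundant, at 10696 RPM in B6 against 2311 RPM in MRL/lpr, and its partners had a median fold of 4.60. MiR-466b-3p was paired with 6 genes, *Nrg1*, *Lpl* and *Tex15* among them, with a median fold of 11.3. MiR-874-3p had 7 partners, including *Sort1*, and miR-342-3p and miR-423-5p had 6 each, including *Sox6* for the former and *P2rx1* for the latter. The 5 partners of miR-101a-3p and miR-101b-3p were *Abcd2*, *Lpcat2*, *Rab39b*, *Adrb1* and *Car13*, and miR-30d-5p also had 5.

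The let-7 and miR-181 families, which include the most abundant of the lower miRNAs, had few partners among the 97. A let-7 miRNA was paired with 1 of the 97 (1.03%) and with 21 of the others (6.12%). A miR-181 miRNA was paired with 5 (5.15%) and 33 (9.62%), *Dram1*, *Itsn1*, *Jazf1* and *Mpp2* among the 5. For 54 of the 97 (55.7%) every paired miRNA was below 100 RPM in B6, compared with 156 of the others (45.5%). A partner of 1000 RPM or more was listed for 14 of the 97. That count was not made for the others, so it is not read as few or many. The shares were not tested, since genes paired through 1 seed are not independent.

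**Figure D3:**
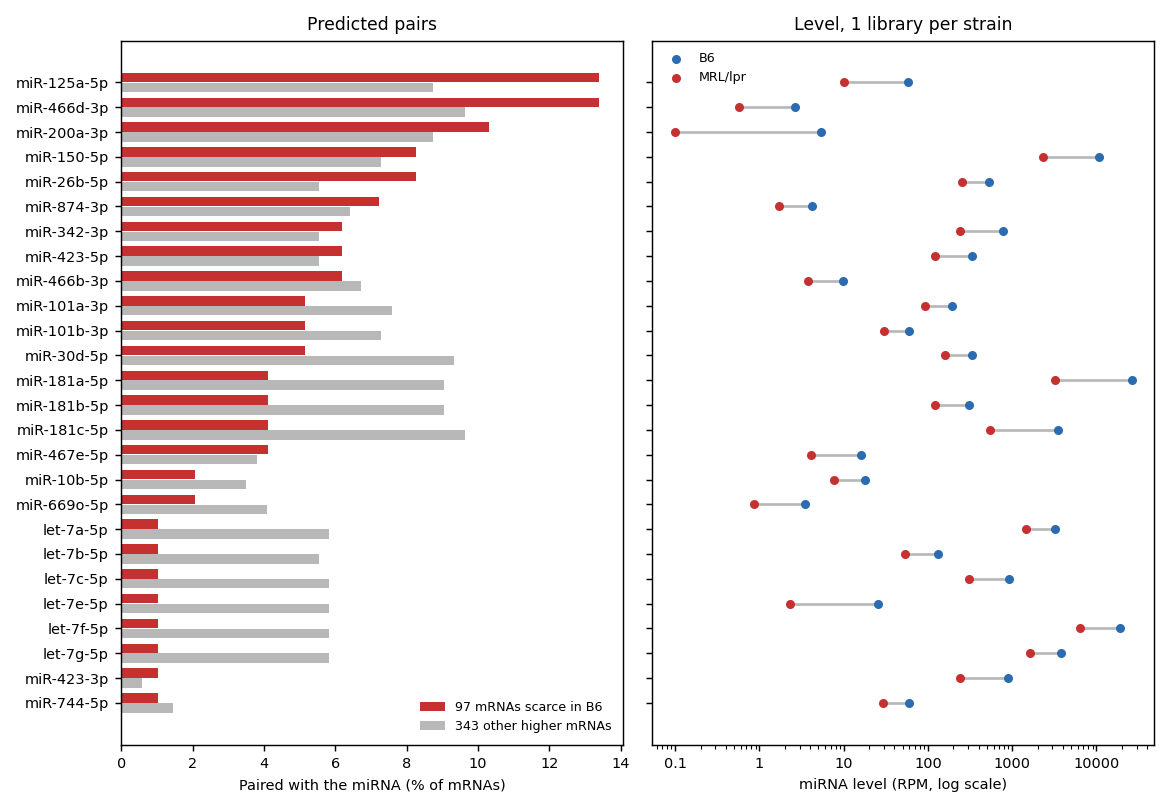
Left, percentage of the 97 mRNAs (red) and of the 343 other higher mRNAs (grey) that the deposited table pairs with each of 26 lower miRNAs. Right, level of each miRNA in the B6 (blue) and MRL/lpr (red) library, in RPM on a log axis; miR-125a-5p and miR-466d-3p lead at 13.4%, while each listed let-7 miRNA is paired with 1.03% of the 97.

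Promoter sequence is shown for the gene with the largest fold and the gene with the highest MRL/lpr level, taken from RefSeq (GRCm38.p6; the build of the files is not given in the sources used here), as 250 bases upstream of a start. The search covered 5 motifs on both strands: the TATA box as TATAAA, the CCAAT box as CCAAT, the E-box as CACGTG, the AP-1 motif as TGANTCA and the GATA motif as AGATAA. The *Rhou* window, chr8:123653679-123653928 on the plus strand, is 73.2% G or C with 36 CpG pairs and holds none of them.
Rhou: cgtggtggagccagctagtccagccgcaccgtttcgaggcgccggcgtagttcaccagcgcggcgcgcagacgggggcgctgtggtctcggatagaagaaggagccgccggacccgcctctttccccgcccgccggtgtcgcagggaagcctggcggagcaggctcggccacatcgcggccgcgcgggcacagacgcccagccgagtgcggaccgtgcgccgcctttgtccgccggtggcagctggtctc
RefSeq has 2 *Aldh1a1* starts, and both windows are shown, with matches in capitals. That of the first, chr19:20492333-20492582 on the plus strand, is 42.8% G or C with 3 CpG pairs and holds the AP-1 motif but no other of the 5.
Aldh1a1, first start: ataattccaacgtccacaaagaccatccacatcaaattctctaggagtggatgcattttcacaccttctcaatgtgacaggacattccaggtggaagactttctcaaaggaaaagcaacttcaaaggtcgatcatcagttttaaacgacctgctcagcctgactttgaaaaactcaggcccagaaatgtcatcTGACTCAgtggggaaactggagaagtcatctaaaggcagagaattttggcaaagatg
The window of the second, chr19:20601718-20601967 on the plus strand, is 46.4% G or C with 1 CpG pair and holds CCAAT and AGATAA but no other of the 5.
Aldh1a1, second start: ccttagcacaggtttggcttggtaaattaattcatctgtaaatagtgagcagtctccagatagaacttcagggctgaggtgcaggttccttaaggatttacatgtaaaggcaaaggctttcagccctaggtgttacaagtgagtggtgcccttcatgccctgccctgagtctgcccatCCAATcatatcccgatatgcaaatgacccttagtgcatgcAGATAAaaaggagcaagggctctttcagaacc
Of all 32851 such windows 33.8% hold CCAAT, 9.99% AGATAA, 12.4% TATAAA, 6.02% CACGTG and 6.75% TGANTCA. A match is a description of the letters and no evidence of binding. The table held a promoter for 73 of the 97 genes (75.3%), and no summary over them was made.

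The 10 genes within the limits that were left out by name are *Msr1*, *Olr1*, *Cd36*, *Mertk*, *Nod2*, *Clec4e*, *Cd177*, *Ceacam1*, *Ppbp* and *Cx3cr1*, most of them known from myeloid cells or platelets. They had 0.00858 to 0.791 FPKM in B6, with a median of 0.303, and 1.27 to 48.4 FPKM in MRL/lpr, with a median of 2.42. Their median fold was 25.6, with a range from 2.92 to 199. The other 14 genes excluded by name, outside the limits, were higher too, with medians of 1.77 FPKM in B6 against 11.8 FPKM in MRL/lpr and folds of 2.03 to 16.5. They include genes of myeloid cells, named after their values were seen. *Itgam*, the integrin chain CD11b, had 1.71 and 28.1 FPKM, *Cd68*, a lysosomal protein of macrophages, 7.28 and 28.7 FPKM, *Csf2rb*, a chain of cytokine receptors, 1.79 and 14.4 FPKM, and the kinase *Lyn*, which B cells also make, 4.03 and 20.9 FPKM. The marker lists hold none of these genes, so their counts leave out the myeloid genes known to be higher. Of the lists, none of the 20 neutrophil and monocyte, 10 dendritic cell, 12 B cell and plasma cell or 11 megakaryocyte and platelet markers stood in either table. Of 12 erythroid markers only *Tfrc*, the transferrin receptor, which proliferating cells share, was listed, at 15.9 FPKM in B6 against 37.9 FPKM in MRL/lpr. Of 10 stromal and endothelial markers, *Vcam1* had 8.92 and 26.4 FPKM, *Cdh5* 0.0840 and 0.228 FPKM and *Col1a2* 0.0175 and 0.168 FPKM. Of 11 CD8 T and NK cell markers, *Klrd1* was lower. The part of other cells in the levels of the 97 was not tested. Because the tables hold predicted targets with a fold of at least 2 only, a gene outside them is not read as absent or unchanged. Gene names of all lists were matched as spelled, and the study uses some older names, such as *Eltd1* and *Ptplad2*. A listed gene that stands under an older name would therefore be missed. Of 28 T cell and helper subset genes only *Il17a*, at 1.95 and 0.932 FPKM, was listed, and *Cd3e* and *Cd4* were not, so the labelled cell type could not be checked. Of the pathway lists, that of TGF-beta and BMP (22 genes), of WNT (19), of G protein and phospholipase signalling (20) and of semaphorins, plexins and ephrins (20) held none of the 97. Among all higher mRNAs they held 0, 1 (*Fzd3*), 1 (*Plcb1*) and 2 (*Epha2* and *Sema4c*), so few could be expected. The G protein list did not hold the receptors *Adrb1* and *Eltd1*, which are among the 97.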

How the data were processed

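Splenic CD4+ T cells of 1 mouse per strain underwent small RNA and mRNA sequencing. The authors deposited, for miRNAs, the read count and the RPM (reads scaled to all trimmed reads) of each mature miRNA with at least 100 reads over both libraries and at least a 2-fold difference. For mRNAs, the authors deposited values that follow the column names of Cuffdiff and are read as FPKM; the deposited log2 fold equals the log2 of their ratio to within 1.3e-05. Aligner, build and annotation: not given in the sources used here. The authors' folds, p-values, q-values and significance marks were not used.

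Values, ratios and counts were computed with Python 3.11.15, SciPy 1.17.1, NumPy 2.4.6 and pandas 2.3.3; Matplotlib 3.10.9 drew the plots. Each group holds 1 library, so no test between strains was made. Intervals are exact Clopper-Pearson limits at 95% on reads, or on whole-number ratios of mRNA values, and cover counting error only. The relative worth of a fragment, 1.07, was the value under which most low values (below 0.1 FPKM) form ratios of whole numbers that add up to 40 or less, with a tolerance of 3e-05; a worth of 2.14 serves 131 genes in place of 135. The search for the worth was tested on simulated ratios of small whole numbers, and its limits were chosen after the values were seen. A ratio was used for a gene of the 97 where its smaller number in lowest terms was at most 10, with no limit on the sum. The simulated data did not cover this looser rule.

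The 97 mRNAs, the gene lists and the roles were chosen with earlier results of these data known. The genes named are the 15 with the highest MRL/lpr value, the 15 with the largest fold, the 10 with the most miRNA partners, members of the lists, the 3 nearest to each limit on either side, and genes sharing a role or family name with these, and the miRNAs are the 10 with the most partners, with ties. Results for a few single genes are not reported here, although the counts, sums and medians include them. Alternatives were other limits, an added 0.1 or 1 FPKM, minimum miRNA levels or folds and counting by seed.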

Additional observations from a re-analysis of the deposited data

How the results depend on the processing

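Each value rests on 1 library per strain, and few fragments stand behind the lowest B6 values. No paired analysis was possible because there is 1 library per group, which leaves nothing to pair. The 97 mRNAs became 59 and 11 with a B6 limit of 0.5 and 0.1 FPKM, and 54 and 5 with an MRL/lpr limit of 2 and 5 FPKM; with both limits at 0.5 or at 2 FPKM they numbered 104 and 102, and with no gene left out by name, an alternative chosen after seeing the data, 107. The median log2 fold of 2.47 was 2.17 and 1.13 with 0.1 and 1 FPKM added to both values, which shrinks folds of low genes by construction, 3.77 over the genes at 5 FPKM or more in MRL/lpr, 2.36 over those at 0.1 FPKM or more in B6 and 2.38 with B6 and MRL/lpr put on the same worth of a fragment, also chosen after seeing the data. The median number of paired miRNAs was 1 and became 0 when only miRNAs of at least 100 RPM in B6 were counted. The share paired with let-7, 1.03%, and with miR-181, 5.15%, was 0% for both among the 5 genes at 5 FPKM or more in MRL/lpr. Among genes at least 4-fold higher the shares were 1.45% and 1.45%, and with no gene left out by name 2.80% and 6.54%.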
